A study of Mus musculus with 15 samples.

Results

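Hes5, 8 further genes of the Notch pathway (Hes1, Hes6, Hey1, Notch1, Notch2, Jag1, Dll1 and Dll4) and En2, a gene outside it, are described here in mouse retina. They are 10 of the 16593 genes named on the array, and every probe annotated with 1 of their symbols was taken, 14 probes in all. Hes5 and En2 were picked because they were higher in the Cnga3 than in the Cngb3 double knockout, so their values on these arrays are given as a description, without a test. The intervals given for Hes5 and En2 are no test either, and their differences may be overstated by the choice. This holds for the contrasts with controls too, which use the same double knockout arrays. The other 8 genes were not picked by that difference and were tested.

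RNA from retinas of mice at postnatal day 30 was measured on Illumina expression beadchips, with both retinas of 1 animal pooled on each of 15 arrays. Mice lacking the cone channel subunit Cnga3 together with Nrl (CNGA3-/-/Nrl-/-, n = 5) are called Cnga3 double knockouts, and mice lacking the subunit Cngb3 together with Nrl (CNGB3-/-/Nrl-/-, n = 5) are called Cngb3 double knockouts. The controls lacked Nrl alone (Nrl-/-, n = 5), so every group was without Nrl, a transcription factor without which mouse retinas form cone-like photoreceptors in place of rods, and no wild-type retina is among the samples analysed here. All 3 groups were on the strain C57bl/6. Median intensity was 136.8 to 171 per array, and 10302 to 13763 of 25697 probes were detected (detection p under 0.01). The Nrl probe was detected on none of the 15 arrays, and Cngb3 averaged 9.04 ± 0.488 in Cnga3 double knockouts, 6.95 ± 0.21 in Cngb3 double knockouts and 9.03 ± 1.1 in Nrl controls (log2 intensity, mean ± SD). One Cnga3 probe averaged 8.30 ± 0.358 in Cnga3 double knockouts against 8.58 ± 0.431 in Nrl controls, and the other averaged 7.57 ± 0.251 against 7.71 ± 0.157. The place of either Cnga3 probe relative to the deletion is not known here, so neither checks the label. All 9 cone markers followed were measured, and their summed intensity was 76401 to 97042 in Cnga3 double knockouts, 83139 to 95828 in Cngb3 double knockouts and 94265 to 112462 in controls, so 1 mouse of each double knockout reached the control range. Of these 9, Arr3, the cone arrestin, was the 1 marker called, with a difference of -2.18 for Cnga3 minus control and -1.84 for Cngb3 minus control (limma, adjusted p = 5.26e-07 and 5.67e-06). The median difference of the 9 markers was -0.09 and -0.17 in these comparisons, against -0.03 and -0.01 over all genes. Cnga3, a targeted gene, is itself 1 of the 9. The part of Arr3 in the lower sums, and of cone RNA in the differences from controls, was not tested. The arrays differed in lens RNA. The summed intensity of 17 lens markers was 119267 to 211764 in Cnga3 double knockouts, 105478 to 269545 in Cngb3 double knockouts, and 97427 to 204867 in controls 2, 4 and 5, against 523 in control 1 and 4615 in control 3. Its part in the results below was not tested.

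Notch is a receptor on the cell surface that is activated by Delta and Jagged ligands on a neighbouring cell. After ligand binding, proteases release its intracellular domain, which enters the nucleus, joins the DNA-binding protein Rbpj and switches on Hes and Hey genes, whose products in turn repress genes that drive neurons to differentiate. In the developing retina this signal keeps progenitors from differentiating and favours Mueller glia, the main glial cell of the retina. En2 is a homeobox transcription factor outside the pathway, best known for its role in the developing midbrain and hindbrain.

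The promoter windows of Hes5 and Nrarp are shown because both genes are established targets of Notch and both were lower in Cngb3 double knockouts than in controls. Their patterns differed otherwise. The Cnga3 minus control difference was -0.48 for Nrarp, against -0.09 and 0.01 for the Hes5 probes. Between the double knockouts, Nrarp was not called (Cnga3 minus Cngb3 difference 0.15, limma, adjusted p = 0.660). The sequences are RefSeq's on GRCm38.p6, from 250 bases before to 50 bases after the gene start, and capitals mark GTGGGAA, the core of the Rbpj site, or its reverse complement. The Hes5 window lies at chr4:154960673-154960972 on the plus strand, and the Nrarp window at chr2:25180508-25180807 on the plus strand.
Hes5: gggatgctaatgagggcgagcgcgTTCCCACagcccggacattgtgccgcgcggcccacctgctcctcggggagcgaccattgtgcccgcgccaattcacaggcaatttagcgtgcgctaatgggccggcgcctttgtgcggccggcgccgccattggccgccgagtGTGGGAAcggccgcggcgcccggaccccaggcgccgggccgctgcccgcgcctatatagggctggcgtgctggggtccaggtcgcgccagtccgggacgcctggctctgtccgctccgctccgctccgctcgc
Nrarp: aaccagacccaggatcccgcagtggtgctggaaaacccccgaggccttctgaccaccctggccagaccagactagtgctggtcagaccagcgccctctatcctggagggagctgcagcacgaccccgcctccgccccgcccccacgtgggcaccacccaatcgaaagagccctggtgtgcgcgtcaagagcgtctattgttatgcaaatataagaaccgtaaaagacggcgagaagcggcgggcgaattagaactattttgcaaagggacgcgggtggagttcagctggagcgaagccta
The Hes5 window held 2 matches that did not overlap, one on the minus strand beginning 226 bases before the start and one on the plus strand beginning 83 bases before it. The Nrarp window held 0. The same letters, searched on both strands, were in 6.38% of all 32851 windows of 300 bases, and 0.256% held 2 or more. Of the 10 genes, 7 had a window, 9 windows in all, and that of Hes5 was the 1 window with a match. En2, Hes1 and Hey1 had no window available and were not searched. A match describes the letters and does not show that a factor binds there.

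Hes5 encodes a transcriptional repressor of the basic helix-loop-helix family that Notch switches on. Its first probe (ILMN_1253414) read 7.47, 7.14, 7.56, 7.43 and 7.63 in Cnga3 double knockouts, 6.48, 6.87, 6.35, 6.78 and 6.98 in Cngb3 double knockouts, and 7.90, 7.39, 7.54, 7.33 and 7.52 in Nrl controls (normalized log2 intensity, here and below). Every Cngb3 double knockout was lower than every mouse of the other groups, while the Cnga3 double knockouts and the controls overlapped. The Cnga3 minus Cngb3 difference was 0.75 (95% interval 0.43 to 1.07), a 1.69-fold higher intensity in the Cnga3 double knockouts. The Cngb3 minus control difference was -0.84 (-1.16 to -0.52), 1.79-fold lower in Cngb3 double knockouts, and the Cnga3 minus control difference was -0.09 (-0.41 to 0.23). In tissue RNA of this kind, fewer cells of a type and less RNA per cell cannot be told apart.

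The second Hes5 probe (ILMN_2624153) also had its lowest values in Cngb3 double knockouts. It read 7.37, 7.20, 7.70, 7.46 and 7.78 in Cnga3 double knockouts, 6.18, 6.47, 6.44, 6.63 and 6.46 in Cngb3 double knockouts, and 7.95, 6.91, 7.68, 7.48 and 7.43 in Nrl controls. The Cngb3 double knockouts again lay below all other mice, with a Cnga3 minus Cngb3 difference of 1.07 (0.70 to 1.43, 2.09-fold) and a Cngb3 minus control difference of -1.05 (-1.42 to -0.69, 2.07-fold lower). The Cnga3 minus control difference was 0.01 (-0.35 to 0.38). Over the 15 arrays the 2 probes had a correlation of 0.925, which includes the difference between the groups. Without controls 1 and 3, the Cngb3 minus control differences were -0.72 and -0.84 for the first and second probe, and the Cnga3 minus control differences 0.03 and 0.23. In the authors' processed table, which has no background subtraction, the Cnga3 minus Cngb3 differences of Hes5 were 0.40 and 0.55, and the Cngb3 minus control differences -0.46 and -0.55. Hes5 and the targeted gene Cngb3 both lie on chromosome 4, with 1186 protein-coding genes between them in the RefSeq gene order.

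En2 showed a different pattern, with the Cnga3 double knockouts standing apart. Its probe (ILMN_2726471) read 9.65, 10.27, 10.003, 10.17 and 10.07 in Cnga3 double knockouts, 9.28, 8.80, 8.74, 8.95 and 9.25 in Cngb3 double knockouts, and 9.31, 9.15, 9.18, 9.50 and 9.16 in Nrl controls. The lowest Cnga3 double knockout was above the highest mouse of either other group, and the Cngb3 double knockouts overlapped the controls. The Cnga3 minus control difference was 0.77 (0.46 to 1.08, 1.71-fold), the Cngb3 minus control difference -0.26 (-0.57 to 0.05) and the Cnga3 minus Cngb3 difference 1.03 (0.72 to 1.34, 2.04-fold). Probes whose 5 Cnga3 and 5 Cngb3 values did not overlap made up 4.93% of all probes measured, and the shares were 6.74% for Cnga3 double knockouts against controls and 6.69% for Cngb3 double knockouts against controls. Since the first of these contrasts picked Hes5 and En2, nothing is read from their place among them.

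**Figure D1:**
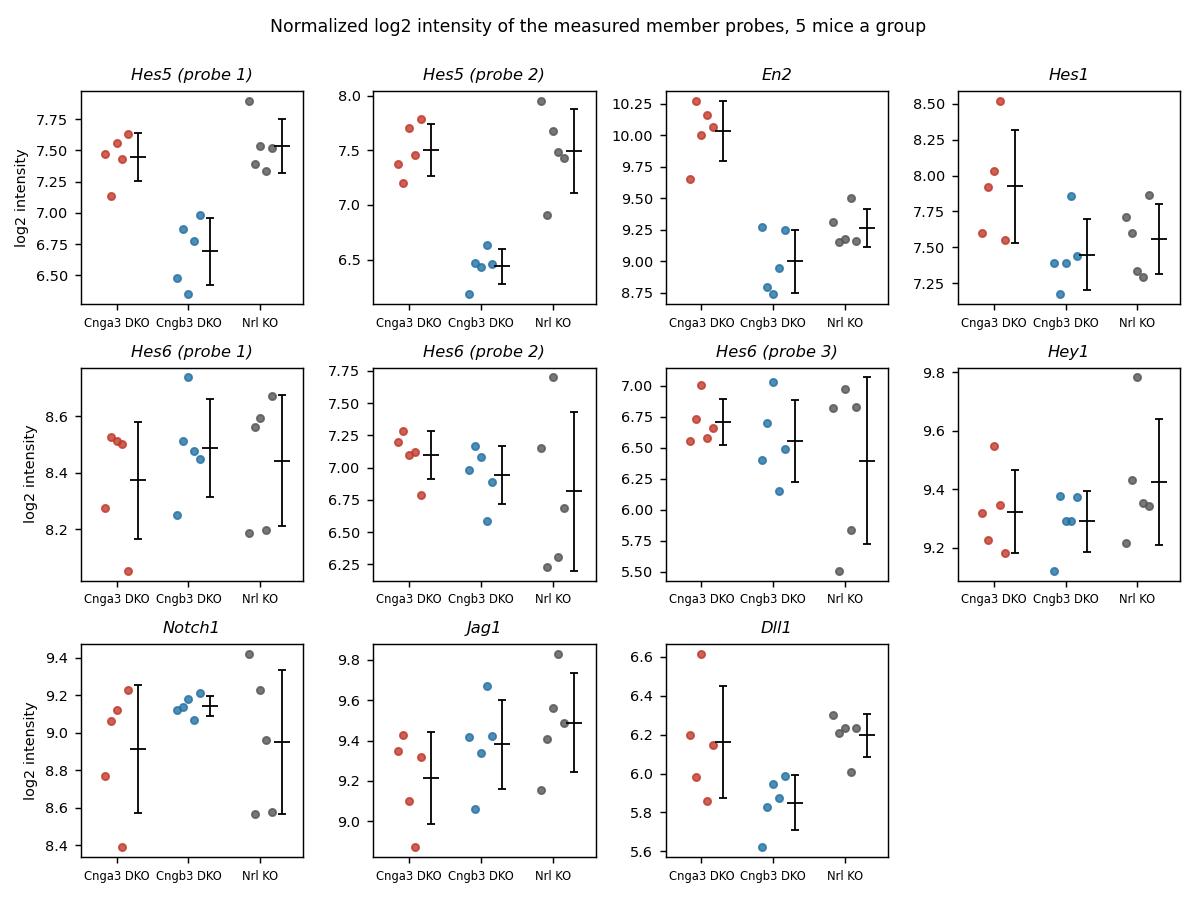
Normalized log2 intensity (vertical axis, a separate scale in each panel) of the 11 measured probes of the members in Cnga3 double knockouts (Cnga3 DKO), Cngb3 double knockouts (Cngb3 DKO) and Nrl controls (Nrl KO). Each point is 1 mouse, and the bars give the mean and SD over 5 mice. Both Hes5 probes sit lowest in the 5 Cngb3 double knockouts, En2 sits highest in the 5 Cnga3 double knockouts, and in the other panels the Cnga3 double knockouts overlap both groups.

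The other members were tested with limma over all 13077 probes measured. Of these 8 genes, 6 were measured, by 8 probes, each detected on all 15 arrays. None was called in any contrast at an adjusted p under 0.05. Among all 9097 genes measured, 9.97% had a called probe in Cnga3 double knockouts against controls, 3.43% in Cngb3 double knockouts against controls and 0.473% between the double knockouts. Counted by probe, 8.04%, 2.68% and 0.405% were called in these comparisons. At an unadjusted p under 0.05, 0 of the 6 genes passed in the first comparison, 1 (Dll1) in the second and 2 (Hes1 and Dll1) in the third, where 30.6%, 24.7% and 18.2% of all genes did. The lowest adjusted p among them was 0.225 (Hes1), 0.167 (Dll1) and 0.253 (Hes1) in the 3 comparisons. The median difference of their 8 probes was -0.04, -0.03 and 0.09, against -0.00574, -0.00251 and -0.00565 over all probes measured. Hes6 counts 3 times in the first of these medians, so they are not medians over genes.

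Of the receptors, Notch1 was measured and Notch2 was not. Notch1 averaged 8.91 ± 0.34 in Cnga3 double knockouts, 9.14 ± 0.05 in Cngb3 double knockouts and 8.95 ± 0.38 in Nrl controls. Its values ran from 8.39 to 9.23 in Cnga3 double knockouts, from 9.07 to 9.21 in Cngb3 double knockouts and from 8.56 to 9.42 in controls. The Cngb3 double knockouts thus lay within the range of the other groups, and the differences were -0.04 (-0.42 to 0.35) for Cnga3 minus control, 0.19 (-0.19 to 0.58) for Cngb3 minus control and -0.23 (-0.62 to 0.16) for Cnga3 minus Cngb3. Without controls 1 and 3, the Notch1 differences were 0.21 for Cnga3 minus control and 0.44 for Cngb3 minus control, and neither passed the test (limma, adjusted p = 0.467 and 0.144). Both Notch2 probes were detected on 0 of 15 arrays, so no fold is given. Their means were 4.70 and 4.53 in Cnga3 double knockouts, 4.72 and 4.61 in Cngb3 double knockouts and 4.63 and 4.55 in controls.

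Of the ligands, Jag1 and Dll1 were measured, and the probe of Dll4, a Delta ligand known for its part in vessel sprouting, was detected on 0 of 15 arrays (means 4.43 in Cnga3 double knockouts, 4.33 in Cngb3 double knockouts and 4.47 in controls). Jag1, a Jagged ligand, averaged 9.21 ± 0.23 in Cnga3 double knockouts, 9.38 ± 0.22 in Cngb3 double knockouts and 9.49 ± 0.24 in controls. The 3 groups overlapped, with a Cnga3 minus control difference of -0.27 (-0.60 to 0.05, adjusted p = 0.267 by limma) and a Cngb3 minus control difference of -0.11 (-0.43 to 0.22). Dll1, a Delta ligand of differentiating neurons, read 6.20, 5.98, 6.61, 5.86 and 6.15 in Cnga3 double knockouts, 5.62, 5.83, 5.95, 5.88 and 5.99 in Cngb3 double knockouts, and 6.30, 6.21, 6.23, 6.01 and 6.23 in controls. Every Cngb3 double knockout was below every control, by a small gap, and the Cnga3 double knockouts overlapped both. The Cngb3 minus control difference of Dll1 was -0.35 (-0.64 to -0.0550), with an unadjusted p of 0.0226 and an adjusted p of 0.167 in limma, so it did not pass the test. Dll1 was the 1 gene of the 6 whose groups did not overlap in that comparison, a property of 8.59% of all genes. For Cnga3 minus control, Dll1 differed by -0.04 (-0.33 to 0.25), and 0 of the 6 genes had groups that did not overlap, against 8.42% of all genes. Its Cnga3 minus Cngb3 difference was 0.31 (0.02 to 0.60), with an adjusted p of 0.314 in limma.

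Of the effectors, Hes1, a repressor of the same family as Hes5 that Notch also switches on, had the largest difference between the double knockouts among the genes tested. Hes1 read 7.60, 7.92, 8.03, 8.52 and 7.55 in Cnga3 double knockouts, 7.39, 7.17, 7.39, 7.85 and 7.44 in Cngb3 double knockouts, and 7.71, 7.60, 7.33, 7.29 and 7.86 in controls. The groups overlapped in every comparison. The Cnga3 minus Cngb3 difference of Hes1 was 0.48 (0.08 to 0.87), with an unadjusted p of 0.0202 and an adjusted p of 0.253 in limma, and it did not pass the test. Its Cnga3 minus control difference was 0.36 (-0.03 to 0.75) and its Cngb3 minus control difference -0.11 (-0.50 to 0.28). No gene of the 6 had groups that did not overlap between the double knockouts, against 6.42% of all genes.

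Hes6 encodes a relative that opposes Hes1 and promotes neuronal differentiation, and it was measured by 3 probes. They averaged 8.37, 7.10 and 6.71 in Cnga3 double knockouts, 8.49, 6.94 and 6.55 in Cngb3 double knockouts and 8.44, 6.82 and 6.39 in controls (probes ILMN_2791952, ILMN_2608043 and ILMN_1214126, in this order). The Cnga3 minus control differences were -0.07, 0.28 and 0.31, the Cngb3 minus control differences 0.04, 0.13 and 0.16 and the Cnga3 minus Cngb3 differences -0.11, 0.16 and 0.15. None was called. The controls were spread widely on the last 2 probes. ILMN_2608043 read 7.15 and 7.70 in controls 1 and 3 and 6.23, 6.31 and 6.69 in controls 2, 4 and 5. ILMN_1214126 read 6.82 and 6.98 in controls 1 and 3 and 5.51, 5.84 and 6.83 in controls 2, 4 and 5, so control 5 was as high as control 1. Controls 1 and 3 were the 2 with little lens RNA. Without them, ILMN_2608043 had a Cnga3 minus control difference of 0.69 and passed the test (limma, adjusted p = 0.0161). The other probes did not (-0.10, adjusted p = 0.717, and 0.65, adjusted p = 0.115). The Cngb3 minus control differences without these controls were 0.00925, 0.53 and 0.50 for the 3 probes in the same order, and none passed (adjusted p = 0.981, 0.0643 and 0.257). Hes6 lies on chromosome 1, as does Cnga3, with 378 protein-coding genes between them.

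Hey1 encodes a Hes-related repressor that Notch switches on, best known from vessels and heart. It averaged 9.32 ± 0.14 in Cnga3 double knockouts, 9.29 ± 0.10 in Cngb3 double knockouts and 9.42 ± 0.21 in controls. The groups overlapped, and the differences were -0.10 (-0.36 to 0.16) for Cnga3 minus control, -0.13 (-0.40 to 0.13) for Cngb3 minus control and 0.03 (-0.23 to 0.29) for Cnga3 minus Cngb3.

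**Figure D2:**
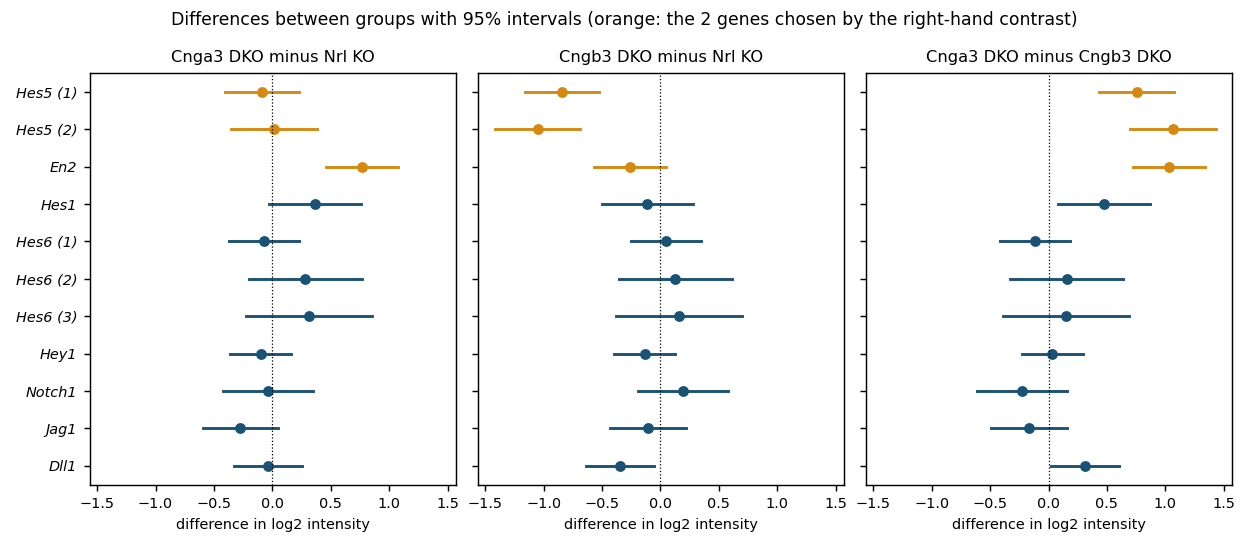
Differences in normalized log2 intensity (horizontal axis) with 95% intervals for the 11 measured probes, from Cnga3 DKO minus Nrl KO (left) to Cnga3 DKO minus Cngb3 DKO (right). Orange marks Hes5 and En2, picked by the contrast on the right, so their intervals are not a test in any panel. The Hes5 points lie at -0.84 and -1.05 in the middle panel and near 0 in the left one, the En2 point lies at 0.77 in the left panel, and the points of the other genes run from -0.35 to 0.48.

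The wider pathway was followed in a list of 93 other genes, called pathway genes below. They are ligands, receptors, their modifiers, proteases, inhibitors, nuclear partners, co-repressors, relatives of the Hes family, proneural factors and partners of En2. Of the 93 genes, 78 were on the array and 58 were measured, each taken at its brightest probe. In Cnga3 double knockouts against controls, 4 rose and 4 fell, where 7.29% of all genes were called (3.46% rose and 3.83% fell). In Cngb3 double knockouts against controls, 1 rose and 2 fell, where 2.51% of all genes were called (1.23% rose and 1.28% fell). Between the double knockouts 0 of the 58 were called, against 0.418% of all genes (0.176% higher and 0.242% lower in Cnga3 double knockouts), and 5 had an unadjusted p under 0.05. Counted at any probe of a gene, 18.2% of all genes passed that unadjusted threshold. The median difference of the list was 0.09, 0.01 and 0.02 in the 3 comparisons, against -0.03, -0.01 and -0.03 over all genes. Both double knockouts were set against the same 5 controls. The counts depended on single arrays. The count of 8 for the Cnga3 double knockouts became 5, 3, 5 and 3 without Cnga3 double knockout 1, 2, 3 or 5 and 4 without control 2 or 5. The count of 3 for the Cngb3 double knockouts became 0 without Cngb3 double knockout 1 or 2 or control 2, 7 without control 1, and 1 without Cnga3 double knockout 1, 2, 3 or 5, Cngb3 double knockout 3, 4 or 5 or control 5.

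Of 9 measured genes that limit or end the Notch signal, 1 rose and 1 fell in Cnga3 double knockouts, where 7.29% of all genes were called. In Cngb3 double knockouts 0 rose and 1 fell, where 2.51% of all genes were called. Nrarp, a target of Notch whose product binds the intracellular domain and promotes its loss, read 8.63, 8.47, 8.76, 8.85 and 8.74 in Cnga3 double knockouts, 8.45, 8.52, 8.71, 8.51 and 8.52 in Cngb3 double knockouts, and 9.07, 9.13, 9.67, 8.85 and 9.13 in controls. Neither double knockout overlapped the controls, though the highest Cnga3 double knockout and the lowest control were equal to 2 decimals. Nrarp fell by 0.63 in Cngb3 double knockouts (limma, adjusted p = 0.0246) and by 0.48 in Cnga3 double knockouts (adjusted p = 0.0441), and the Cnga3 minus Cngb3 difference was 0.15 (-0.15 to 0.44). The call in Cnga3 double knockouts ended in 12 of the 15 fits that left out 1 array (adjusted p up to 0.105, without Cnga3 double knockout 2), all but those without Cnga3 double knockout 4, control 1 or control 4. The call in Cngb3 double knockouts ended without Cngb3 double knockout 1, 2 or 4 or control 2 (adjusted p up to 0.0703). Fbxw7, part of a ubiquitin ligase that marks the Notch intracellular domain for destruction, read 8.70, 9.01, 9.02, 9.23 and 9.39 in Cnga3 double knockouts, 9.02, 8.74, 8.89, 8.66 and 8.62 in Cngb3 double knockouts, and 8.56, 7.94, 7.25, 8.31 and 8.36 in controls. Both double knockouts lay above all controls, and control 3 was lowest. Fbxw7 rose by 0.99 in Cnga3 double knockouts (adjusted p = 0.0102), a call that held in all 15 fits that left out 1 array. In Cngb3 double knockouts its difference was 0.70 with an adjusted p of 0.0797 at this probe, while a dimmer second probe rose there by 1.004 (adjusted p = 0.0108) and in Cnga3 double knockouts by 0.65 (adjusted p = 0.0405). The probes thus differed in which double knockout was further from the controls.

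Of 7 measured genes of the proteolysis of Notch, 1 rose and 1 fell in Cnga3 double knockouts, where 7.29% of all genes were called. In Cngb3 double knockouts 1 rose and 0 fell, where 2.51% of all genes were called. Both genes concerned encode subunits of gamma-secretase, the complex that cuts Notch within the membrane. Psen2, one of its catalytic subunits, read 6.63, 6.45, 6.05, 6.50 and 6.15 in Cnga3 double knockouts, 6.33, 6.42, 6.85, 6.67 and 7.27 in Cngb3 double knockouts, and 6.72, 6.98, 7.34, 7.17 and 6.90 in controls. The Cnga3 double knockouts lay below all controls, and the Cngb3 double knockouts overlapped both groups. Psen2 fell by 0.67 in Cnga3 double knockouts (adjusted p = 0.0339), and this call ended without Cnga3 double knockout 2, 3 or 5 or control 2, 3 or 4 (adjusted p up to 0.0852). Aph1b, a scaffold subunit, averaged 8.49 ± 0.126 in Cnga3 double knockouts, 8.52 ± 0.093 in Cngb3 double knockouts and 8.03 ± 0.253 in controls, with no overlap between either double knockout and the controls. It rose by 0.46 in Cnga3 double knockouts (adjusted p = 0.0362) and by 0.49 in Cngb3 double knockouts (adjusted p = 0.0494). The first call ended without Cnga3 double knockout 1, 2, 3 or 5, Cngb3 double knockout 3 or control 3 or 5 (adjusted p up to 0.0845), and the second in 13 of 15 fits (up to 0.132), all but those without Cnga3 double knockout 4 or control 1. Aph1b has a near-identical copy in the mouse, Aph1c, and the signal of the 2 genes may not be separable at this probe.

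Of 10 measured co-repressors, 1 (Tle6) was called in Cnga3 double knockouts and 0 in Cngb3 double knockouts, and of 6 measured targets and relatives of the Hes family, 1 (Id4) and 0 were. Over all genes, 7.29% and 2.51% were called in these comparisons. Tle6, a divergent member of the Groucho family of co-repressors through which Hes proteins act, averaged 7.95 ± 0.0879 in Cnga3 double knockouts, 8.30 ± 0.179 in Cngb3 double knockouts and 8.46 ± 0.0801 in controls. Its Cnga3 double knockouts overlapped neither group. Tle6 fell by 0.51 in Cnga3 double knockouts against controls (adjusted p = 0.0130), a call that held in all 15 fits that left out 1 array, and its Cnga3 minus Cngb3 difference was -0.35 (adjusted p = 0.163). Id4, a helix-loop-helix protein without a DNA-binding part that blocks its relatives, averaged 8.74 ± 0.235 in Cnga3 double knockouts, 8.60 ± 0.164 in Cngb3 double knockouts and 8.11 ± 0.364 in controls. It rose by 0.64 in Cnga3 double knockouts (adjusted p = 0.0308), a call that ended without Cnga3 double knockout 2, 4 or 5 or control 2 or 5 (up to 0.0657), and differed by 0.49 in Cngb3 double knockouts (adjusted p = 0.120).

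Of 3 measured proneural factors, 2 were called in Cnga3 double knockouts and 1 in Cngb3 double knockouts, where 7.29% and 2.51% of all genes were called. Neurod1, a proneural factor that photoreceptors keep into adult life, averaged 12.04 ± 0.206 in Cnga3 double knockouts, 11.64 ± 0.266 in Cngb3 double knockouts and 11.41 ± 0.325 in controls. It rose by 0.63 in Cnga3 double knockouts (adjusted p = 0.0327), although their lowest value, 11.72, was below the highest control, 11.79, and the call ended without Cnga3 double knockout 1, 2, 4 or 5 or control 2, 3 or 5 (up to 0.0788). Atoh7, the factor that retinal progenitors need to form ganglion cells, was near the limit of detection, with 2, 2 and 3 arrays detected in the Cnga3 double knockouts, the Cngb3 double knockouts and the controls. It averaged 5.02 ± 0.134 in Cnga3 double knockouts, 5.19 ± 0.268 in Cngb3 double knockouts and 5.82 ± 0.300 in controls. Atoh7 fell by 0.80 in Cnga3 double knockouts (adjusted p = 0.00785), in all 15 fits that left out 1 array, and by 0.63 in Cngb3 double knockouts (adjusted p = 0.0415), a call that ended in 11 of 15 fits (up to 0.112), all but those without Cnga3 double knockout 4, Cngb3 double knockout 4 or control 1 or 4. In the authors' table, without background subtraction, the same differences of Atoh7 were -0.23 and -0.18 (adjusted p = 0.0280 and 0.101).

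The calls of Fbxw7 and Atoh7 in Cnga3 double knockouts held under every alternative run. Centring each array on its median in place of quantile normalization ended the calls of Tle6 (adjusted p = 0.137), Psen2 (0.120), Nrarp (0.0864), Aph1b (0.0581) and Neurod1 (0.0558) in Cnga3 double knockouts and of Aph1b (0.178) and Atoh7 (0.0785) in Cngb3 double knockouts. Without controls 1 and 3, the calls of Nrarp (0.0971), Neurod1 (0.0665) and Psen2 (0.0501) in Cnga3 double knockouts and of Atoh7 (0.0795) in Cngb3 double knockouts ended, while Id4 (0.0358) and the brighter Fbxw7 probe (0.0486) passed in Cngb3 double knockouts. Fitting the 2 groups of a comparison alone ended the calls of Nrarp (0.128), Aph1b (0.115), Id4 (0.0912), Neurod1 (0.0751) and Psen2 (0.0532) in Cnga3 double knockouts and of Nrarp (0.0550), Aph1b (0.0812) and Atoh7 (0.0839) in Cngb3 double knockouts. A looser filter (detection p under 0.05 on at least 3 arrays) ended the Nrarp call in Cnga3 double knockouts (limma, adjusted p = 0.0521). That filter also ended the call of Aph1b in Cngb3 double knockouts (0.0616). With no filter on dim probes, the call of Atoh7 in Cngb3 double knockouts ended (0.0538). A trended and robust prior ended the calls of Aph1b (0.0503) and Atoh7 (0.0670) in Cngb3 double knockouts.

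Between the double knockouts, the 2 genes of the list with the lowest p were Mfng and Tle6. Mfng, a glycosyltransferase that adds a sugar to Notch and changes its response to ligands, read 11.76, 11.64, 11.62, 11.33 and 11.51 in Cnga3 double knockouts, 10.95, 10.66, 10.88, 11.08 and 11.27 in Cngb3 double knockouts, and 11.12, 11.06, 11.45, 11.36 and 10.85 in controls. The 5 Cnga3 double knockouts lay above the 5 Cngb3 double knockouts, with the controls overlapping both. The Cnga3 minus Cngb3 difference of Mfng was 0.60 (0.29 to 0.91) with an adjusted p of 0.0834, and at a dimmer second probe it was 0.51 (adjusted p = 0.332). Neither passed the test. The brighter probe passed in 3 of 9 alternatives, with array weights (adjusted p = 0.00312), a trended and robust prior (0.0436) and the authors' table (0.0483).

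**Figure D3:**
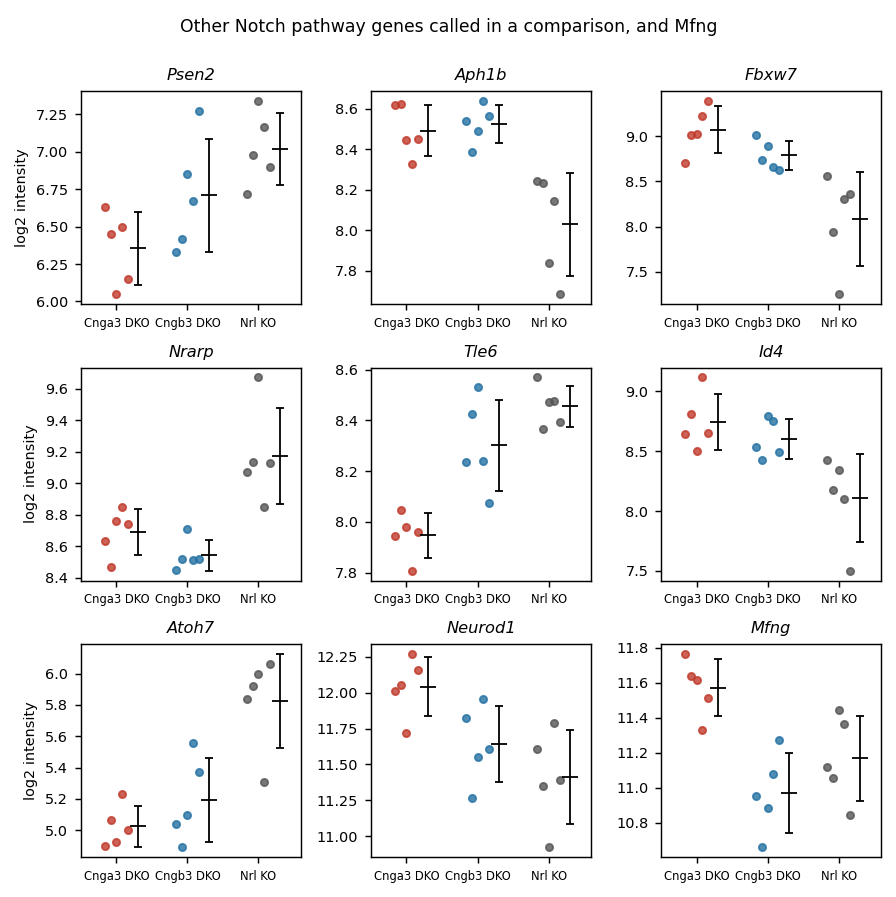
Normalized log2 intensity (vertical axis, a separate scale in each panel) of the 8 other pathway genes called in a comparison with the controls, and of Mfng, in Cnga3 DKO, Cngb3 DKO and Nrl KO mice. Each point is 1 mouse, and the bars give the mean and SD over 5 mice. Nrarp, Atoh7, Psen2 and Tle6 average lower in both double knockouts than in controls, and Fbxw7, Aph1b, Id4 and Neurod1 average higher. Not all of these differences were called.

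Since Hes5 is known from Mueller glia, a list of 20 markers of these cells was followed beside it. Of these, 19 were on the array, and all 19 were measured, which means detected on at least 5 arrays. In Cngb3 double knockouts, where Hes5 was low, 1 marker rose and 0 fell against controls, with a median difference of 0.14, where 2.51% of all genes were called. In Cnga3 double knockouts 2 rose and 0 fell against controls, with a median of 0.07, where 7.29% of all genes were called, and between the double knockouts 1 fell and 0 rose, with a median of -0.16. Over all genes the medians were -0.01, -0.03 and -0.03 in these comparisons, and 0.418% of genes were called in the last. The summed intensity of the 19 markers was 48690 to 53006 in Cnga3 double knockouts, 54889 to 58237 in Cngb3 double knockouts and 43477 to 54338 in controls, so the Cngb3 double knockouts had the highest sums. This list is not particular to Mueller glia: retinal pigment epithelium also expresses Rgr, and Rlbp1 is on both marker lists. The median pigment epithelium sum was 9439 in Cnga3 double knockouts, 27101 in Cngb3 double knockouts and 18452 in controls. Its part in the Mueller glia sums was not tested. Aqp4, the water channel of glial end feet, averaged 9.72 in Cnga3 double knockouts, 10.01 in Cngb3 double knockouts and 9.03 in controls. It rose by 0.98 in Cngb3 double knockouts (limma, adjusted p = 0.0186) and by 0.70 in Cnga3 double knockouts (adjusted p = 0.0465). The first of these calls ended without Cngb3 double knockout 2, 3 or 4 or control 2 (up to 0.0575), and the second in 11 of 15 fits (up to 0.111), all but those without Cnga3 double knockout 4, Cngb3 double knockout 5 or control 1 or 5. Car2, a carbonic anhydrase, rose by 0.52 in Cnga3 double knockouts (adjusted p = 0.0318), and this call ended without Cnga3 double knockout 1, 2 or 5 or control 2 or 4 (up to 0.0715). With the 2 groups alone, the calls of Aqp4 (0.108) and Car2 (0.103) in Cnga3 double knockouts ended, and filters that kept more dim probes also ended that of Aqp4 (0.0511 and 0.0679).

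The marker that fell between the double knockouts was Rgr, an opsin that retinal pigment epithelium also expresses. It averaged 9.43 in Cnga3 double knockouts and 11.08 in Cngb3 double knockouts, a difference of -1.66 (adjusted p = 0.0446). The values of the groups overlapped, and the call was lost in 10 of 15 fits (up to 0.127), all but those without Cnga3 double knockout 1 or 4, Cngb3 double knockout 5 or control 3 or 5. It was also lost with no filter on dim probes (limma, adjusted p = 0.0740) and with a trended and robust prior (0.0690). The summed intensity of 9 measured pigment epithelium markers was 7096, 9022, 9439, 26141 and 11377 in Cnga3 double knockouts, against 16571 to 27547 in Cngb3 double knockouts and 13743 to 23781 in controls, so 4 of the 5 Cnga3 double knockouts were below every other mouse. Among these 9, 2 fell in Cnga3 double knockouts against controls, where 3.83% of all genes fell, and 2 fell against Cngb3 double knockouts, where 0.242% did. Lrat and Tyr, defining markers, were detected on no array. The mouse with the sum of 26141, Cnga3 double knockout 4, had an En2 value of 10.17, within the range of its group. This is 1 mouse, and the part of pigment epithelium RNA in the Rgr and En2 differences was not tested. Glul, the glutamine synthetase that defines Mueller glia, differed by 0.64 (0.07 to 1.22, adjusted p = 0.146) for Cnga3 minus control, 0.11 (-0.47 to 0.68) for Cngb3 minus control and 0.54 (-0.04 to 1.11) for Cnga3 minus Cngb3. Spc25 and Sox2 also had positive Cnga3 minus Cngb3 differences, of 0.62 (adjusted p = 0.260) and 0.43 (adjusted p = 0.533), the direction of Hes5. Glul, Spc25 and Sox2 were picked after their values were seen. The median of all 19 measured markers in that comparison was -0.16, the other direction. None of these 3 markers passed the test in any comparison.

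**Figure D4:**
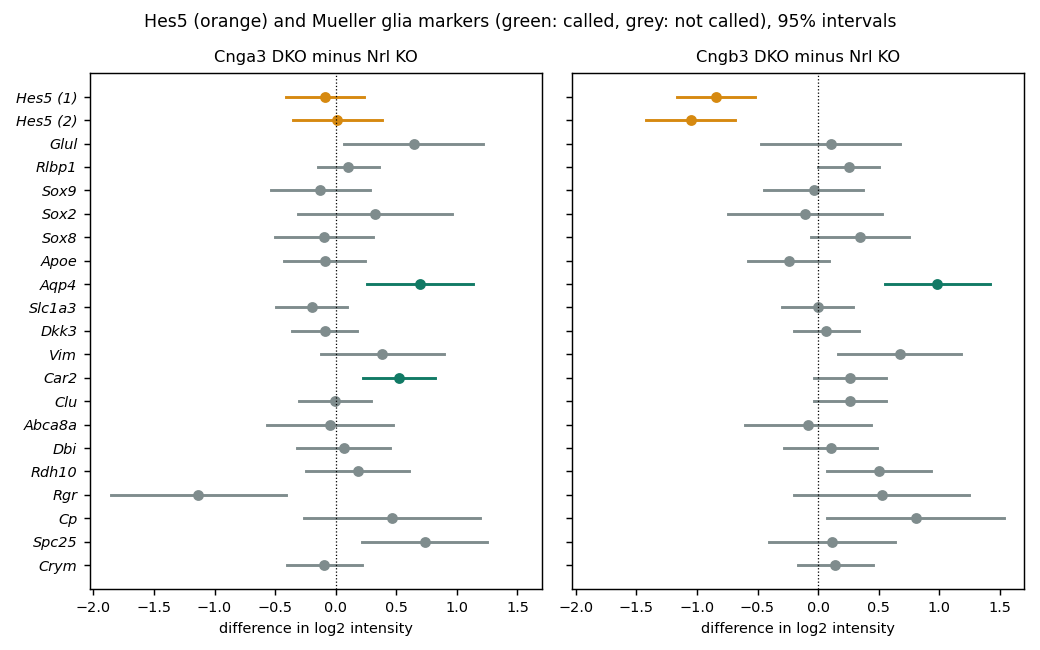
Differences in normalized log2 intensity (horizontal axis) with 95% intervals for both Hes5 probes (orange) and the 19 measured Mueller glia markers (green where called, grey where not), in Cnga3 DKO minus Nrl KO (left) and Cngb3 DKO minus Nrl KO (right). In the right panel the Hes5 points lie at -0.84 and -1.05, the median of the markers is 0.14 and Aqp4 is at 0.98. The Hes5 intervals are not a test, since Hes5 was picked on the same arrays.

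The genes whose intensity followed that of Hes5 and En2 most closely were sought among all 13077 probes measured. These correlations are over 15 arrays that share the difference between the groups, and values within groups are given beside them. For Hes5 the highest were Nxnl2, a thioredoxin-like survival factor of photoreceptors (r = 0.830, within groups 0.215), Calu (0.829 and 0.367), Sema3f, a secreted guidance protein (0.814 and 0.540), Rgl3 (0.810 and 0.333) and Ermap (0.808 and 0.261). Nxnl2 averaged 10.12 ± 0.160 in Cnga3 double knockouts, 9.41 ± 0.262 in Cngb3 double knockouts and 10.45 ± 0.184 in controls. Ermap averaged 5.90 ± 0.406 in Cnga3 double knockouts, 4.96 ± 0.309 in Cngb3 double knockouts and 6.71 ± 0.0521 in controls. For En2 the highest were Cabp5, a calcium-binding protein of bipolar cells (r = 0.892, within groups 0.498), Bag6 (0.890 and 0.537), Rnf220 (0.886 and 0.652), Atp6v0d1, a subunit of the vacuolar proton pump (0.879 and 0.620), and Snx3 (0.872 and 0.732). Cabp5 averaged 10.67 ± 0.297 in Cnga3 double knockouts, 9.41 ± 0.303 in Cngb3 double knockouts and 9.90 ± 0.339 in controls.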

How the data were processed

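Expression was measured in 15 mouse retina samples on an Illumina beadchip, 1 array per animal, 5 in each of 3 groups taken from the titles. Per the labels, total RNA was labelled with biotin. The submitters' processing notes name GenomeStudio, without a version or settings. The authors' deposited unnormalized table gives a linear intensity for each probe on each array, with a detection p-value beside it per the file headers. The authors' processed table holds log2 values, which equal the log2 of quantile-normalized intensity to within 0.000646, with no background subtraction.

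Background correction and normalization used neqc of limma 3.58.1 under R 4.3.3 (normal-exponential background correction from inferred negative controls, offset 16, quantiles, log2). A probe was kept where 5 or more arrays had a detection p below 0.01, which left 13077 of 25697. The 3 groups shared 1 linear model with empirical Bayes moderation (12 residual and 4.73 prior degrees of freedom). P-values are two-sided and adjusted by Benjamini-Hochberg over the kept probes of a contrast, with a call at an adjusted p under 0.05. A gene is called where any of its probes is (members) or where its brightest is (lists). Errors after ± are SD over 5 mice, intervals are 95% and come from the model. The number of arrays limits the precision.

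The members, lists and tests were chosen with earlier results of these data known. Every member probe was named, each list gene called in a contrast (or the 2 with the lowest p), the called Mueller glia markers, and the 5 genes most correlated with Hes5 and En2. Further markers named beside these were chosen after their values were seen. Symbols came from the platform's probe table, which names 1 gene for 23978 probes and none for 1719. Promoter windows came from RefSeq tables. The fit was tested on simulated data. Alternatives were another normalization, the authors' log2 table, other filters, a replicate block, leaving out arrays, 2 groups at a time, array weights and a trended prior. No slide or scan is given for any array.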

Additional observations from a re-analysis of the deposited data

Results flagged for a closer look

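Nrarp in Cngb3 double knockout 3 (8.71) lay far from the other 4 mice of its group, whose nearest value was 8.52 and whose lowest was 8.45, a gap of 0.746 of the whole range. It was the 1 array set apart in this way among 69 groups of 5 values, where chance sets apart about 1 in 20 groups. Rgr differed between the double knockouts under the same control, with a Cnga3 minus Cngb3 difference of -1.66 and an adjusted p of 0.0446 in limma.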

How the results depend on the processing

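The Cnga3 minus Cngb3 differences, by which Hes5 and En2 were picked, were 0.40 to 0.91 and 0.55 to 1.21 for the Hes5 probes and 0.89 to 1.13 for En2 over the alternatives, with the lowest values from the authors' log2 table. The other members stayed uncalled in every alternative except that leaving out controls 1 and 3 together called 1 of them (Hes6) in Cnga3 double knockouts against controls. Leaving out 1 array called 0 members in each comparison. The cause of the changes below was not tested.

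The count of pathway genes called in Cnga3 double knockouts against controls was 8, and it was 3 with the 2 groups alone, 16 with array weights and 3 to 10 when 1 array was left out. In Cngb3 double knockouts it was 3, and it was 1 with median centring, 1 with the replicate block, 7 without controls 1 and 3, 0 with the 2 groups alone, 8 with array weights, 1 with a trended prior and 0 to 7 when 1 array was left out. Between the double knockouts it was 0, and it was 1 in the authors' log2 table, 5 with array weights and 1 with a trended prior. Same-numbered mice were not treated as pairs in the main model. Of 15 such pairs, 4 correlated above 0.1 in their deviations from the group means (range -0.107 to 0.280). These 4 were every pair of the mice numbered 4 (0.140, 0.214 and 0.280) and Cnga3 double knockout 3 with control 3 (0.249). An effect shared by same-numbered mice was not tested. The replicate block gave 7 pathway genes in Cnga3 double knockouts and 0 between the double knockouts, and 0 members in each comparison. It ended the calls of Psen2 (0.0534), Aqp4 (0.0599) and Car2 (0.0502) in Cnga3 double knockouts and of Aph1b (0.0651) and Atoh7 (0.0692) in Cngb3 double knockouts (adjusted p). Over all probes, the calls in the 3 comparisons were 1051, 351 and 53, and ran from 323 to 1880, 230 to 1054 and 42 to 1170 over the alternatives, and from 551 to 1229, 130 to 828 and 19 to 180 without 1 array.

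Small differences changed sign. With median centring the Cnga3 minus control differences became 0.0818 (Hes6 ILMN_2791952), 0.0173 (Hey1), 0.0788 (Notch1) and 0.12 (Dll1), and the Cnga3 minus Cngb3 differences 0.0280 (Hes6 ILMN_2791952) and 0.10 (Aph1b). Without controls 1 and 3 the Cnga3 minus control differences became 0.21 (Notch1) and 0.00921 (Dll1), and with array weights 0.20 (Notch1) and 0.0291 (Dll1). Array weights made the Cnga3 minus Cngb3 difference of Aph1b 0.00530. When 1 array was left out, the Cnga3 minus control differences ran from -0.13 to 0.10 (Notch1), -0.15 to 0.0387 (Dll1) and -0.13 to 0.0107 (Hes6 ILMN_2791952). The Cngb3 minus control differences of Hes6 ran from -0.0615 to 0.31 (ILMN_1214126), -0.0188 to 0.35 (ILMN_2608043) and -0.0203 to 0.10 (ILMN_2791952), and the Cnga3 minus Cngb3 differences from -0.0651 to 0.0103 (Aph1b) and -0.0224 to 0.0690 (Hey1). The median over all probes was 0.11 with median centring and -0.01 without it in Cnga3 minus control, and 0.09 and -0.01 in Cnga3 minus Cngb3, and the share of higher calls was 83.4% under it against 57.4%, 85.1% against 45.3% and, in Cngb3 minus control, 48.0% against 53.6%.

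Dim probes limit what can be said of Notch2, Dll4 and Atoh7, and 5 mice a group limit the rest. The controls differed in lens RNA, and no array has a known batch.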
